A study of Mus musculus with 57 samples.

Results

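The major urinary protein genes described here are 10 of the 54307 gene rows in the deposited liver table, chosen by name: Mup1, Mup3, Mup7, Mup11, Mup12, Mup14, Mup17, Mup20, Mup21 and Mup22. Major urinary proteins are small secreted carrier proteins of the lipocalin fold. Hepatocytes release them into the blood, the kidney passes them into the urine, and there they bind and slowly release volatile scent molecules. In male mouse liver their transcription is driven by pulsatile growth hormone acting through the transcription factor STAT5b, together with androgen, thyroid hormone and glucocorticoid, so the family is a textbook readout of male-type liver expression. Mup20, also called darcin, is itself a male pheromone.

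The samples were bulk RNA from livers of 57 wild-type male C57BL/6JJcl mice, an inbred strain, 40 given 1 of 7 liver toxicants and 17 given vehicle. All mice were 6 weeks old at the start of a 1-week acclimatisation, were fasted for 12 h before dosing and were killed 24 h after it, and the liver was perfused before a piece of the outer left lateral lobe was taken. By gavage, 4 mice received alpha-naphthyl isothiocyanate (ANIT, a bile duct toxicant), 6 acetaminophen (APAP), 7 methylene dianiline (MDA) and 5 thioacetamide (TAA), beside 13 mice given 0.5% methylcellulose. By intraperitoneal injection, 7 mice received carbon tetrachloride (CCl4) and 4 galactosamine (GAL), beside 2 mice given 0.9% saline. By tail vein, 7 mice received concanavalin A (ConA, a lectin that activates T cells), beside 2 mice given 0.9% saline. The labels give no dose of any compound, and name corn oil as a further vehicle without saying which compounds were given in it. No corn oil control was analysed here. Each compound was therefore set against the vehicle of its own route and against all 17 vehicle mice, and in the second setting route and compound cannot be told apart for the injected compounds. In bulk liver RNA, fewer hepatocytes and less Mup RNA per hepatocyte cannot be told apart.

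Library totals ran from 13826343 to 35075809 estimated counts (median 21532116), and mitochondrial transcripts took 5.11% to 39.3% of a library (median 14.5%). The 6 hepatocyte markers summed to 67037 to 143906 CPM (counts scaled to a common library size) in vehicle mice, and none was at 0 in any group. That sum was 32345 to 40473 CPM with CCl4 and 32004 to 39144 CPM with GAL. Mice carry numbers in their labels, which no label ties to a date or batch. Higher numbers went with lower levels of most Mup sums and members examined, but not of Mup20 in vehicle mice (r = -0.12, rho 0.0): across the 57 mice the number and the summed near-identical Mup level had r = -0.55 (rho -0.50), and across the 17 vehicle mice r = -0.58.

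The Mup genes sit side by side on chromosome 4, and most are nearly the same sequence, which decides how far a single gene can be read. Over the coding sequence of the GENCODE transcripts, 543 to 555 bases long, the 7 members Mup1, Mup7, Mup11, Mup12, Mup14, Mup17 and Mup22 matched each other at 98.35% to 99.63% of positions (2 to 9 differences in a pair, 21 pairs). Mup3 shared only 82.7% to 83.96% with them, Mup21 83.88% to 84.98% and Mup20 90.11% to 91.39%. The same 60-base stretch of coding sequence, bases 215 to 274 of Mup11, is shown for every member. It was picked as the stretch with the most positions where the 7 agree and Mup3, Mup20 or Mup21 differs. Capitals mark each base that differs from Mup11.
Mup11: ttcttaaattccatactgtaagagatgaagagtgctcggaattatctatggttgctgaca
Mup1: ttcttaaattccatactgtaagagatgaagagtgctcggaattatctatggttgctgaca
Mup12: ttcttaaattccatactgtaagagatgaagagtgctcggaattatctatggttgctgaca
Mup14: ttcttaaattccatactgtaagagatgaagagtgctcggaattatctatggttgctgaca
Mup7: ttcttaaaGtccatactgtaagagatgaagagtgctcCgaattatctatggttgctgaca
Mup17: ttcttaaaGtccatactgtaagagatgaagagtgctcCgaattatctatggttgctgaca
Mup22: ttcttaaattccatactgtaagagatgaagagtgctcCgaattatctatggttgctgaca
Mup20: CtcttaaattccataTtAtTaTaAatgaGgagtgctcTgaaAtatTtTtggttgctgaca
Mup3: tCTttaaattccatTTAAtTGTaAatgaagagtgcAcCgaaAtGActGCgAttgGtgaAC
Mup21: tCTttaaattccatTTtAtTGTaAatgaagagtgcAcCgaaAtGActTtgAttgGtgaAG

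In this stretch Mup1, Mup12 and Mup14 had 0 differences from Mup11, so a read lying wholly inside it fits all 4 genes equally. Mup22 had 1 difference, Mup7 and Mup17 had 2, Mup20 had 11, Mup21 had 19 and Mup3 had 21. The stretch was picked for contrast: over the last 480 coding bases Mup20 differed from Mup11 at 45, Mup21 at 75 and Mup3 at 76. Mup3 and Mup21 were closer to each other, at 94.95% (28 differences), than to the rest. Reads from these 2 genes and from Mup20 can thus be told from the other 7 more often than those 7 from each other, whose split was made by the estimator. Mup21 was far less abundant than Mup3, and how many reads the estimator moved between the 2 was not tested. These 7 are given as 1 summed level, called the near-identical sum, and each of their single values is uncertain. Some Mup genes outside the 10 are as close: Mup18 differed from the 7 by 1 to 8 coding bases, Mup19 by 4 to 6 and Mup10 by 4 to 7. A sum over all 22 Mup genes, 26 pseudogene rows apart, is therefore given as well.

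The values that follow are CPM scaled by the trimmed mean of M-values (TMM). The deposited estimates behaved as if already divided by transcript length (a Spearman correlation of -0.76 between a gene's smallest value and its transcript length), so levels of different genes can be set side by side on this scale. In the 17 vehicle mice Mup3 was the most abundant member at 3043 ± 1650 CPM (SD, n = 17), place 46 among all gene rows. Mup11 followed at 1563 ± 998, Mup20 at 1190 ± 707, Mup14 at 727 ± 471 and Mup7 at 653 ± 549. Mup1 stood at 217 ± 203, Mup17 at 43.0 ± 32.8, Mup12 at 23.7 ± 16.9 and Mup21 at 10.6 ± 7.37. Each pair of neighbours in this order differed by less than the larger of their SDs. Mup22, listed at 0 in many mice, is described apart. All 22 Mup genes together took 0.700% to 3.34% of a gavage vehicle library (median 2.21%), and the 10 members made up 25.0% to 57.8% of that. The most abundant Mup gene in the 17 vehicle mice was Mup10, which is not among the members, at a mean of 9270 CPM.

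Mup levels varied widely among mice that received only vehicle. In the 13 gavage vehicle mice the near-identical sum ran from 349 to 13288 CPM with a median of 3497, a span of 38.0-fold in one strain, sex and age. Its SD on the log2 scale was 1.52, larger than that of 98.1% of the 5537 genes averaging 10 CPM or more, whose median SD was 0.26. Mup3 (913 to 7081 CPM, log2 SD 0.89), Mup20 (284 to 2589 CPM, log2 SD 1.08) and Mup21 (2.64 to 26.7 CPM, log2 SD 0.91) also varied more than at least 96.4% of those genes. By number range, the near-identical sum averaged 5502 CPM in mice 1 to 4, 6043 CPM in mice 7 to 12 and 1534 CPM in mice 15 to 18. Mup3 averaged 4066, 3638 and 1676 CPM in the same ranges. No treated or saline mouse had a number above 12, so vehicle mice 15 to 18 had no counterpart of like number. They are part of every gavage and all-vehicle control used below. Mitochondrial percentage moved with Mup3 in the 17 vehicle mice (r = 0.76, rho 0.81) and with the near-identical sum (r = 0.62, rho 0.65); these are shares of the same libraries, and their part in the spread was not tested. The saline vehicles lay inside the gavage range, with near-identical sums of 3620 and 1278 CPM after intraperitoneal and 1295 and 2836 CPM after tail vein saline. Of the 10 members, 0 were called between either saline group and gavage by edgeR's quasi-likelihood test at an adjusted p below 0.05, and 0 at an unadjusted p below 0.05, where 0.0131% and 0.0263% of all genes tested were called.

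**Figure D1:**
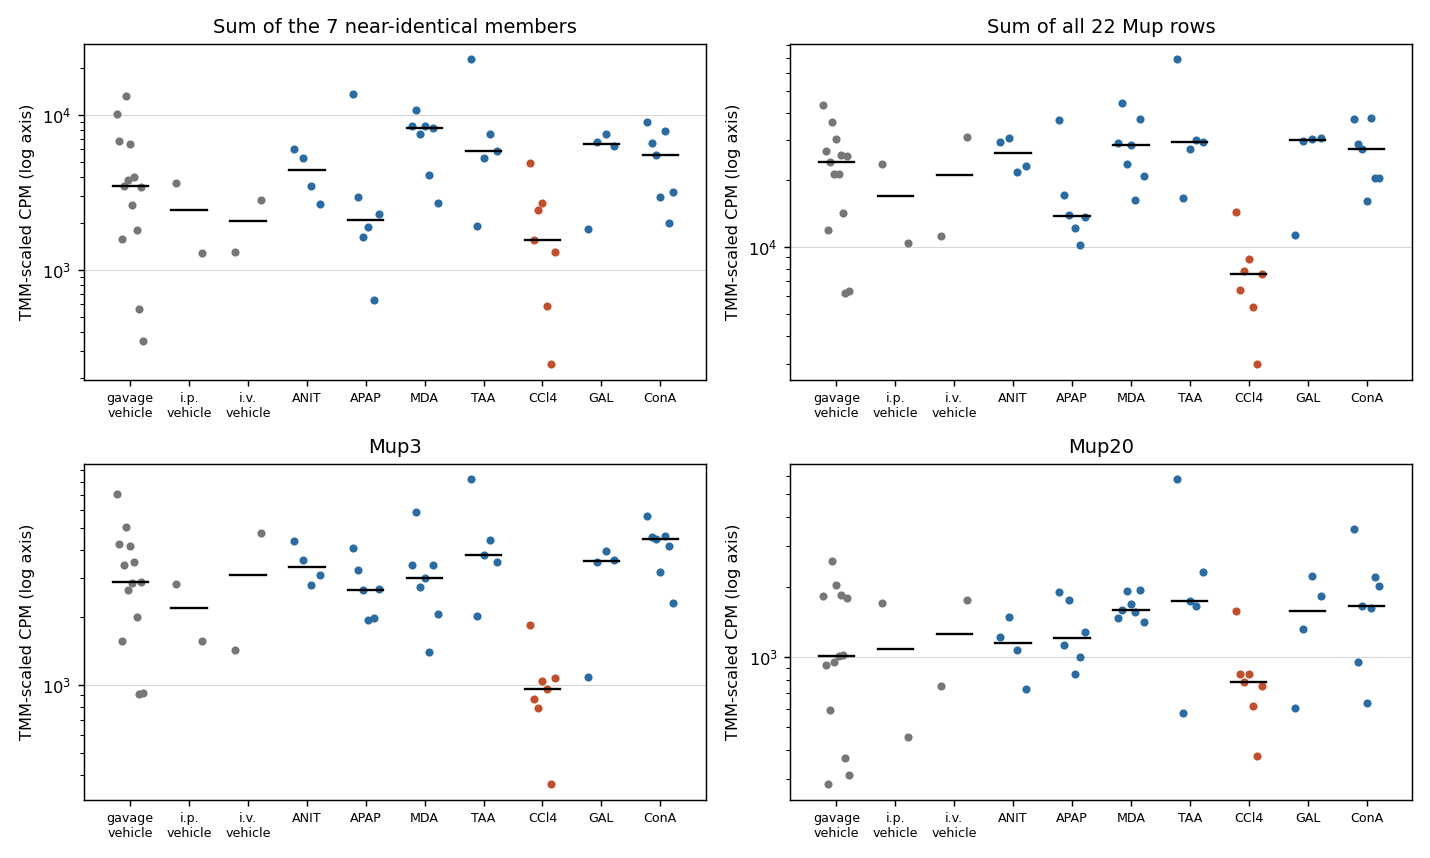
TMM-scaled CPM on log axes, 1 point for each of the 57 mice in order of mouse number within a group, with a bar at the group median; panels show the near-identical sum, the sum of all 22 Mup genes, Mup3 and Mup20. Vehicle mice spread from 349 to 13288 CPM for the near-identical sum, and the CCl4 mice (red) lie lowest for Mup3, at 361 to 1855 CPM.

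Across the 10 groups the order of medians of the near-identical sum ran from CCl4 at the bottom (246 to 4860 CPM, median 1566) to MDA at the top (2699 to 10749 CPM, median 8231). APAP mice ran from 642 to 13548 CPM (median 2099), TAA mice from 1924 to 22849 (median 5842) and ConA mice from 1996 to 9043 (median 5506). ANIT mice measured 6019, 5289, 3473 and 2680 CPM, and GAL mice 1834, 6659, 7518 and 6265 CPM. Each of the 9 pairs of neighbouring groups in this order overlapped, and the same held for Mup3, Mup20, Mup21 and the sum of all Mup genes.

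No toxicant shifted the near-identical sum by an amount that the main edgeR test could call. DESeq2 called the sum higher with ConA against its route vehicle. For the near-identical sum the log2 fold changes against all 17 vehicle mice were 0.13 ± 0.61 (SE) with ANIT, 0.02 ± 0.61 with APAP, 0.86 ± 0.47 with MDA, 1.16 ± 0.57 with TAA, 0.45 ± 0.61 with GAL, 0.51 ± 0.48 with ConA and -1.05 ± 0.58 with CCl4. The adjusted p-values (edgeR, Benjamini-Hochberg over all genes) ran from 0.097 with TAA to 0.98 with APAP, and against the route vehicle from 0.11 with ConA to 0.96 with ANIT. With standard errors of 0.47 to 0.61, the sums are not shown to be unchanged. The TAA value fell to 0.39 without TAA mouse 1. The APAP value leaned on mouse 1: against the gavage vehicle it was -0.15 with all 6 mice and -1.25 ± 0.65 without that mouse (adjusted p = 0.16). That mouse also had the highest hepatocyte marker sum of its group, 112819 CPM against 77686 to 92141. In the same comparisons 28.0% (ANIT), 33.4% (APAP), 34.2% (MDA), 49.7% (TAA), 53.4% (CCl4), 52.5% (GAL) and 68.0% (ConA) of all genes tested passed the same test. Of the 10 members, edgeR called 0 with ANIT, APAP, MDA, GAL and ConA against all vehicles. At an unadjusted p below 0.05 there were 3 with MDA and 0 with the other 4, DESeq2 called 0 with each, and limma called 1 with MDA and 1 with ConA. With library-total scaling, which moved the median of all genes by 0.83 with GAL, 7 members were called with GAL against all vehicles and the near-identical sum was past the threshold at 1.33. Of all genes, 8345 were called higher and 1758 lower under that scaling. Against the route vehicle, where 28.2% (ANIT), 31.8% (APAP), 33.8% (MDA), 28.5% (GAL) and 34.2% (ConA) of genes passed, edgeR called 0 with ANIT, APAP and MDA (0 at an unadjusted p below 0.05, 0 by DESeq2 and 0 by limma), and only Mup22 with GAL and ConA.

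CCl4, a solvent that is turned into a radical by cytochrome P450 enzymes of pericentral hepatocytes, was the compound with the most members called lower against all vehicles, although the near-identical sum was not called. Mup3 measured 361 CPM in the lowest, 959 in the median and 1855 in the highest of 7 CCl4 mice, against 913, 2830 and 7081 CPM in the 17 vehicle mice. All 7 lay below the vehicle median and 3 below every vehicle mouse, so the groups overlapped at the low end of the vehicles. Mup3 fell by 1.65 on the log2 scale (SE 0.36, adjusted p = 0.00040). All 6 hepatocyte markers were lower in the same comparison, with a median of -1.52, from -0.45 for Fgb to -1.62 for the protease inhibitor Serpina1c, and albumin (Alb) was at -1.54. All listed sinusoidal endothelial markers were lower too, from -0.54 (Fcgr2b) to -1.07 (Kdr). Of the Kupffer cell markers Clec4f (-1.32) and Vsig4 (-1.06) were lower, Marco was higher (2.02) and the others were not called. Mitochondrial transcripts took a median of 11.1% of CCl4 and 13.6% of vehicle libraries. The part of these in the Mup changes was not tested. Mup17, one of the near-identical genes, ran from 1.74 to 11.2 CPM with CCl4 (median 8.08) and from 6.29 to 129.8 in vehicles (median 35.7). It fell by 2.61 (SE 0.51, adjusted p = 0.00010), with all 7 mice below the vehicle median. Mup21 ran from 1.12 to 6.92 CPM (median 3.51) against 2.64 to 26.7 (median 8.01), again with 7 of 7 below the vehicle median, and fell by 1.56 (SE 0.44, adjusted p = 0.0037).

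Mup11, the most abundant of the near-identical genes, fell by 1.25 (SE 0.49, adjusted p = 0.033) from a vehicle median of 1534 to 632 CPM, with 6 of 7 CCl4 mice below that median. That makes 4 of 10 members lower and 0 higher with CCl4 against all vehicles, where 53.4% of all genes were called (27.2% lower). The sum of all Mup genes ran from 2979 to 14376 CPM (median 7543) against 6229 to 43175 CPM (median 23545) and fell by 1.54 (SE 0.35, adjusted p = 0.00055). Of the other Mup genes, 8 of 9 tested were also lower, among them Mup10 (-1.68 ± 0.30), Mup18 (-2.19 ± 0.29) and Mup2 (-2.78 ± 0.42). Mup20 was among the 6 members not called, with a log2 difference of -0.56 ± 0.38 (adjusted p = 0.23), 375 to 1581 CPM with CCl4 against 284 to 2589 CPM in vehicles.

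Against the 2 intraperitoneal saline mice alone, which differed from each other (Mup3 2816 and 1569 CPM, Mup17 35.7 and 13.1 CPM), 1 of 10 members was called with CCl4 where 33.5% of all genes were. This was Mup17, at -1.78 ± 0.55 (adjusted p = 0.033), whose CCl4 and saline mice did not overlap. The call was lost without saline mouse 7 (-0.89) and with scaling to the library total (-1.41). Mup3 was at -1.15 ± 0.45 (adjusted p = 0.075) and Mup21 at -1.56 ± 0.59 (adjusted p = 0.069). Scaling to the library total raised the median of all genes by 0.53 against all vehicles with CCl4. On that scale Mup3 (-1.07), Mup17 (-2.01) and Mup21 (-1.00) against all vehicles were still called, and Mup11 (-0.71, adjusted p = 0.16) was not. Mup11 also lost its call without any one of CCl4 mice 5, 6, 10, 11 and 12 (adjusted p = 0.052 to 0.080). With the number range in the model Mup3 was at -1.62, and among mice numbered above 4 it was at -1.73, both called. Mup21 lost its call against all vehicles when the mouse number was a block in the model.

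**Figure D2:**
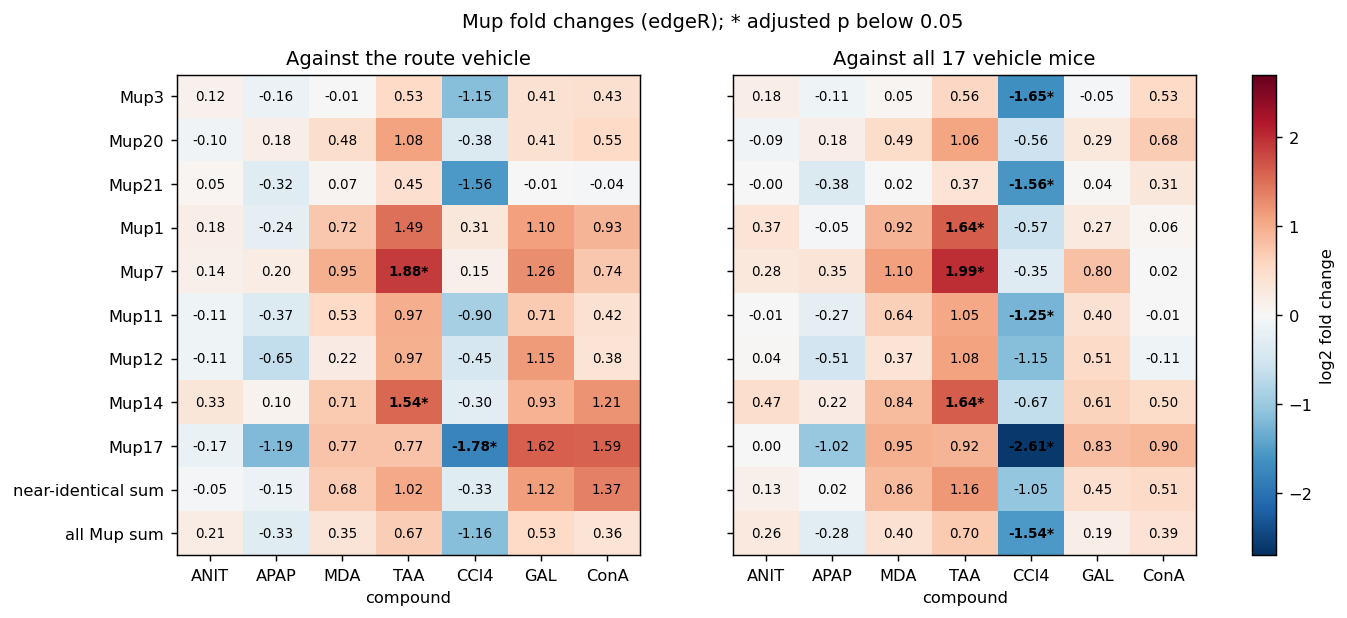
Log2 fold changes from edgeR for 9 members, the near-identical sum and the sum of all Mup genes, for each compound against its route vehicle (left) and against all 17 vehicle mice (right); red is higher, blue lower, and a star marks an adjusted p below 0.05. Stars stand in the CCl4 and TAA columns only; Mup22, listed at 0 in whole groups, is not drawn.

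GAL, an amino sugar that depletes uridine nucleotides in hepatocytes, was given by the same route. Whether it was given in the same vehicle is not stated. On the TMM scale it left hepatocyte markers in an overlapping range, while Mup3 and the sum of all Mup genes differed. Library-total scaling moved the median of all genes by 0.53 with CCl4 and 0.83 with GAL against all vehicles. The marker sums were not computed on that scale. Mup3 was 1082, 3528, 3937 and 3601 CPM in the 4 GAL mice, so 3 of 4 exceeded every CCl4 mouse and 1 lay among them. In a direct edgeR comparison, made after both sets of values had been seen, Mup3 was lower with CCl4 than with GAL by a log2 difference of -1.66 ± 0.40 (adjusted p = 0.0056). Leaving out any 1 mouse gave -1.96 to -1.49. Mitochondrial transcripts took 9.43% to 14.5% of the CCl4 libraries and 9.54%, 14.8%, 20.1% and 18.4% of the GAL libraries in the same order of mice, lowest in the GAL mouse with the lowest Mup3. Their part in the difference was not tested. The sum of all Mup genes was 11360, 29733, 30516 and 30823 CPM with GAL, again above all CCl4 mice in 3 of 4, with a difference of -1.79 ± 0.37 (adjusted p = 0.0023). Mup17, at 32.4, 99.0, 92.3 and 90.4 CPM with GAL, did not overlap the CCl4 mice (-3.50 ± 0.44, adjusted p = 8.5e-05). Mup11 (-1.72 ± 0.59, adjusted p = 0.035) and Mup21 (-1.67 ± 0.48, adjusted p = 0.016) were lower too, but Mup21 was not called without GAL mouse 7 (-1.11), and Mup11 was not called without any one of 6 of the mice. In all, 4 of 10 members were called, all lower with CCl4, beside 42.5% of all genes (20.3% lower), and so were 8 of 9 other Mup genes tested.

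The hepatocyte marker genes did not follow the same order. Their summed level had a median of 36248 CPM with CCl4 and 32089 CPM with GAL, and of the 6 genes, 2 were higher with CCl4, transferrin (Trf, 1.10) and fibrinogen beta (Fgb, 1.74), and 0 lower. Of 7 pericentral hepatocyte genes 5 were lower with CCl4 than with GAL, among them Cyp2e1 (-2.98), the enzyme that activates CCl4, and glutamine synthetase Glul (-2.60), and 1 was higher, Cyp1a2 (1.68). The pericentral genes summed to 614 to 1014 CPM with CCl4 and 1806 to 2614 CPM with GAL. Of 6 periportal genes 4 were higher and 1 lower with CCl4. Of the markers of other cells, 4 of 5 for Kupffer cells, 4 of 5 for sinusoidal endothelium, 3 of 5 for stellate cells, 1 of 5 for cholangiocytes, 2 of 5 for monocytes, 0 of 5 for neutrophils, 2 of 3 tested for T cells and 3 of 4 tested for B cells were lower with CCl4, where 20.3% of all genes were, and none was higher. The part of these differences in the Mup difference was not tested. Both compounds were set against vehicle with the same 2 saline mice, and the 4 GAL mice include 1 that stood apart.

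**Figure D3:**
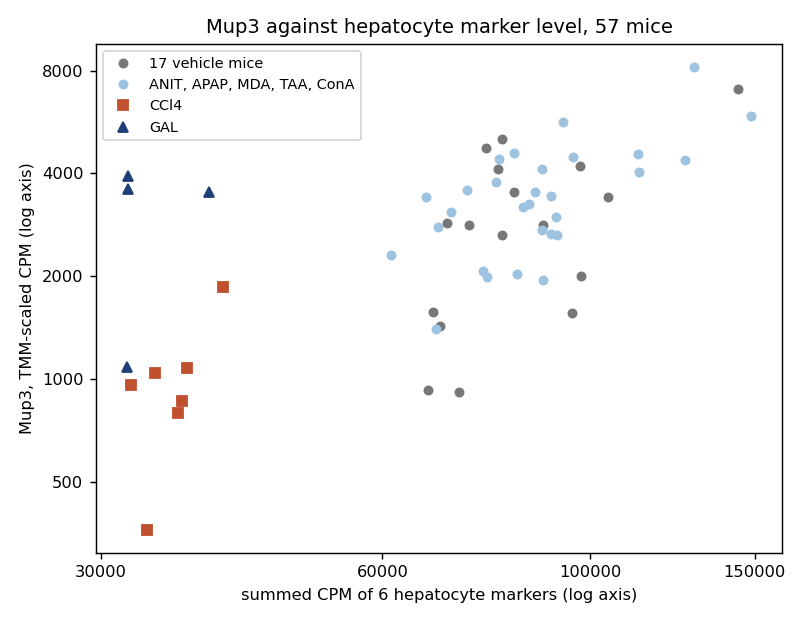
Mup3 (vertical log axis) against the summed CPM of 6 hepatocyte markers (horizontal log axis) in the 57 mice, with CCl4 as squares and GAL as triangles. Both groups sit at the left, at 32004 to 40473 TMM-scaled CPM of marker, and 3 of 4 GAL mice lie above every CCl4 mouse in Mup3.

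With TAA, a hepatotoxicant that needs metabolic activation, 3 members were called higher against all vehicles (25.2% of all genes were), and without 1 mouse none of the 3 was called. Mup14 measured 5256, 558, 1426, 2108 and 1744 CPM in TAA mice 1, 3, 6, 7 and 8, against 91.2 to 1933 CPM in vehicles (median 672). It rose by 1.64 ± 0.47 on the log2 scale (adjusted p = 0.0057). Mup7 (8137, 250, 1149, 1984 and 1106 CPM, vehicles 42.6 to 1980) was at 1.99 ± 0.61 (adjusted p = 0.0091) and Mup1 (1912, 85.7, 359, 594 and 339 CPM, vehicles 14.1 to 692) at 1.64 ± 0.64 (adjusted p = 0.036). For each of these genes 4 of 5 TAA mice lay above the vehicle median and mouse 3 below it. Without TAA mouse 1 the differences were 1.02 for Mup14 (adjusted p = 0.095), 0.79 for Mup7 (0.32) and 0.68 for Mup1 (0.44), and no call was left but that of Mup22.

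With Mup22 called lower, 4 of 10 members were called with TAA against all vehicles and 3 of 10 against gavage vehicle, below the 49.7% and 50.5% of all genes called in those comparisons. TAA mouse 1 also had the highest Mup3 of the 57 mice at 8203 CPM, against 2034, 3781, 4410 and 3527 CPM in the other TAA mice. Its 6 hepatocyte markers summed to 129127 CPM, above the 79421 to 87370 CPM of the other 4. Mouse 1 also had the highest sum of its group in gavage vehicle (143906 CPM), ANIT (126174), APAP (112819) and CCl4 (40473). In the MDA group mouse 1 had the lowest (66836 CPM). Mup3 itself was not called with TAA (0.56 ± 0.37, adjusted p = 0.23), nor was Mup20 (1.06 ± 0.45, adjusted p = 0.056) or the sum of all Mup genes (0.70 ± 0.36, adjusted p = 0.11).

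Mup22 had a different distribution from the other members. It was listed at exactly 0 in 28 of 57 mice and at 11.4 to 5016 CPM (median 1599) in the rest. The zeros were 7 of 13 gavage vehicles, 2 of 2 in each saline group, 5 of 5 TAA, 5 of 7 CCl4, 3 of 6 APAP, 3 of 7 MDA and 1 of 7 ConA mice, and none of the ANIT or GAL mice. Mup11 was at 108 CPM or more in every one of the 57 mice. A listed 0 can be a failed estimate for a gene that shares its reads, so no fold change is given for Mup22, and its calls with TAA, GAL and ConA rest on groups listed at 0. Leaving it out of the near-identical sum brought that sum past the threshold with TAA (1.46 ± 0.51, edgeR adjusted p = 0.019, against all vehicles). Since Mup22 was at 0 in all 5 TAA mice and all saline mice, this took counts from 6 of 13 gavage vehicles only. How many of its reads the estimator gave to other members in TAA mice was not tested, for this sum or for single members. TAA mouse 1, without which the full sum fell to 0.39, enters this value too, and the sum without Mup22 was not refitted without that mouse.

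Compounds given by gavage were also compared directly, in 6 pairs. Among the members the only calls were Mup17, lower with APAP than with MDA (-1.98 ± 0.53, adjusted p = 0.032), and Mup22, listed at 0 in all TAA mice, between ANIT and TAA. Of all genes, 9.45% were called for APAP against MDA, 26.2% for ANIT against TAA, 5.96% for ANIT against APAP, 0.00% for ANIT against MDA, 2.62% for APAP against TAA and 30.0% for MDA against TAA. At an unadjusted p below 0.05 the 4 pairs without a call had 0 to 3 members, and no other tool was run on them. For Mup3 the 6 differences ran from -0.66 ± 0.33 (APAP against TAA) to 0.26 ± 0.24 (ANIT against APAP), and none was called.

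Whether the distinguishable members moved with the rest of the family was tested by their log2 ratio to the near-identical sum. Library scaling cancels in this ratio but for the added pseudocount of 1, which counts most for Mup21 (1.12 to 27.1 CPM). Of 21 ratios (3 genes, 7 compounds, two-sided exact permutation tests against all 17 vehicles, Benjamini-Hochberg over the 21), 2 were called, both with MDA, an aromatic amine toxic to bile ducts. In the 7 MDA mice the Mup3 log2 ratio was -1.30, -0.86, -1.46, -1.50, -1.55, -1.26 and -0.38, all below the vehicle median of -0.04, while vehicles ranged from -1.40 to 1.40. The highest vehicle ratio was that of gavage mouse 18, whose number is above that of every treated mouse. The mean was -1.19 with MDA and -0.06 in vehicles, a difference of -1.13 (exact permutation adjusted p = 0.0066). For Mup21 the MDA ratio averaged -9.21 against -8.14 in vehicles, a difference of -1.07 with 7 of 7 mice below the vehicle median (exact permutation adjusted p = 0.013). Mup21 lost this call against gavage vehicle alone (-0.87, exact permutation adjusted p = 0.059) and against the sum of every other Mup gene (-0.32, exact permutation adjusted p = 0.44). Mup3 itself differed little in mean between MDA and all vehicles (0.05 ± 0.32, adjusted p = 0.93) while the near-identical sum was at 0.86 ± 0.47. Mup19 (1.38) and Mup15 (1.77), outside the 10, rose with MDA against gavage vehicle, and Mup2 fell (-1.05).

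The ratio of Mup20 to the near-identical sum was not called with any compound. In the MDA mice its level was the tightest of any group, at 1419 to 1950 CPM (1658 ± 208, SD, n = 7), against 284 to 2589 CPM in gavage vehicles. With CCl4 the Mup20 ratio to the near-identical sum was 0.65 higher than in vehicles, with 4 of 7 mice above the vehicle median (exact permutation adjusted p = 0.31). Relative to the sum of every other Mup gene, a setting added after the data were seen, it was 1.20 higher with CCl4 (exact permutation adjusted p = 0.00012) and 0.71 higher with APAP, both called. A difference between Mup20 and the rest of the family under these compounds was thus called with the second reference and not with the first.

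**Figure D4:**
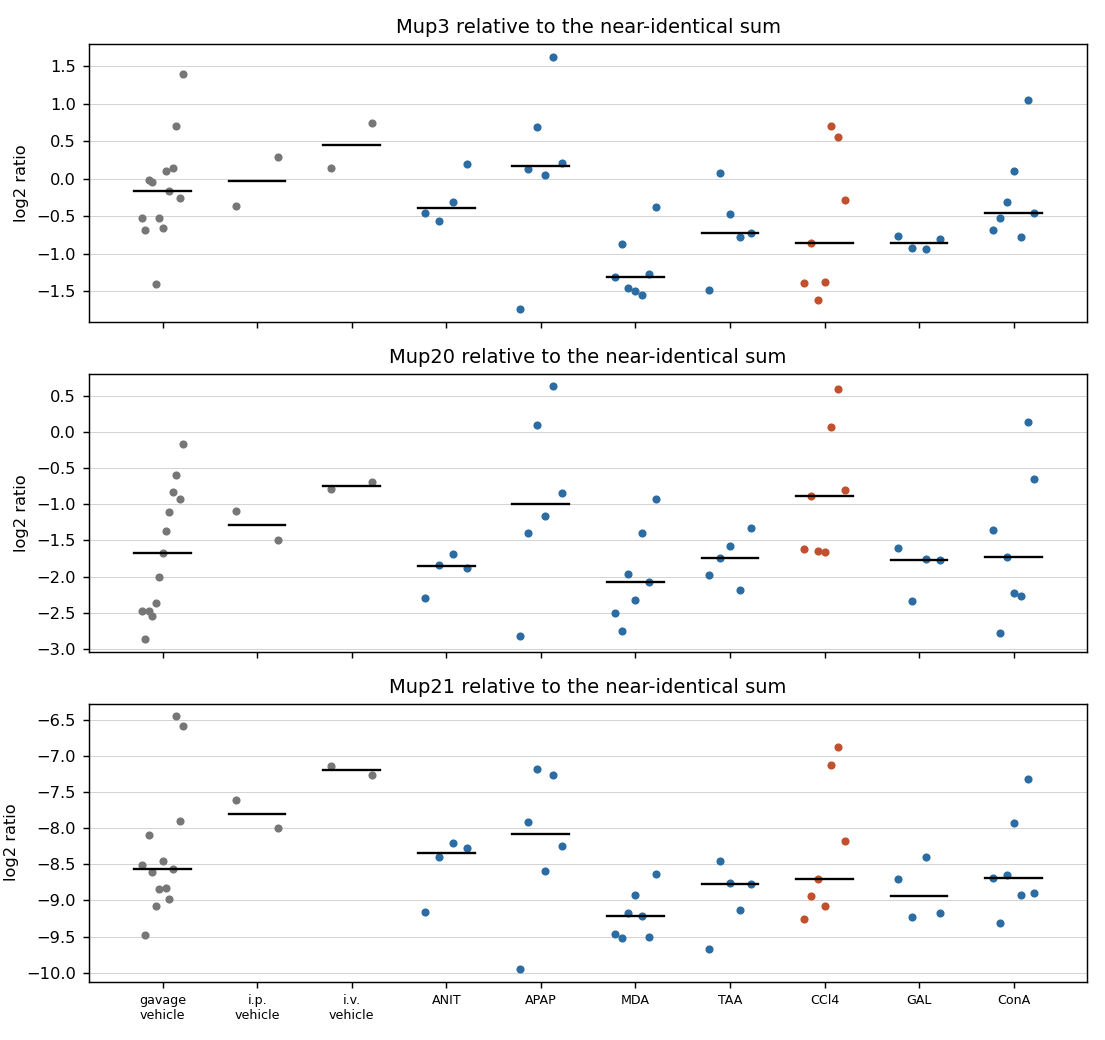
Log2 ratio of Mup3, Mup20 and Mup21 (CPM plus 1) to the near-identical sum in each of the 57 mice, with a bar at the group median. The 7 MDA mice lie between -1.55 and -0.38 for Mup3, all below the vehicle median of -0.04.

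The Mup genes are usually counted in the male-type growth hormone programme. Other genes of that programme were called lower with ANIT, APAP, MDA, GAL and ConA in comparisons where edgeR with TMM called 0 of 10 Mup members. Limma called 1 member with MDA and 1 with ConA there, and library-total scaling most of the 10 with GAL. The list held 9 other male-biased, growth hormone dependent liver genes, among them the steroid dehydrogenase Hsd3b5, the fatty acid elongase Elovl3 and the selenium-binding protein Selenbp2. Against all vehicles 6 of 9 were lower with ANIT (14.5% of all genes tested were), 9 with APAP (15.3%), 6 with MDA (17.1%), 3 with TAA (24.5%), 9 with CCl4 (27.2%), 8 with GAL (27.5%) and 5 with ConA (33.7%). With TAA the share was near that of all genes, and 4 of 10 Mup members were called. In the other direction 2 were higher with ANIT, 1 with MDA and 2 with ConA, Cyp4a12b among them each time (1.00, 0.96 and 0.96). The list medians ran from -0.47 with TAA to -2.59 with CCl4, beside -0.03 to 0.06 for all genes. Hsd3b5 was at 19.5 to 146.1 CPM in the 17 vehicle mice, at 0 to 0.402 CPM with ANIT, 0.0317 to 0.351 with MDA, 0.269 to 1.75 with GAL and 0.123 to 5.08 with ConA, with no overlap in any of these. Its log2 fold change against all vehicles was -9.81 with ANIT, -3.79 with APAP, -9.03 with MDA, -4.01 with TAA, -3.39 with CCl4, -6.97 with GAL and -5.41 with ConA. Elovl3 was at 40.5 to 190.5 CPM in vehicles and 0.667 to 5.59 CPM with ConA, with log2 fold changes from -1.65 (MDA) to -5.44 (ConA).

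In the same mice the log2 fold change of Mup3 was between -0.11 and 0.56 with every compound but CCl4, although scaling to the library total turned the GAL value from -0.05 to 0.82. The log2 ratio of Mup3 to Hsd3b5 was higher than in vehicles with all 7 compounds, by 6.58 with ANIT, 4.35 with APAP, 6.24 with MDA, 4.64 with TAA, 2.17 with CCl4, 5.66 with GAL and 5.53 with ConA, and every treated mouse lay above the vehicle median. The largest exact permutation adjusted p among these 7 was 0.00073. Hsd3b5 was picked after its values had been seen, so these p-values are descriptions only. Over all 126 ratios (Mup3 and the near-identical sum, each against the 9 genes with 7 compounds, two-sided exact permutation tests adjusted over the 126), 96 were higher with the compound and 2 lower. Mup3 gave 47 of 63 higher and the near-identical sum 49 of 63. Both lower ones were Mup3 over the fatty acid hydroxylase Cyp4a12b, with ANIT (-0.69) and MDA (-0.88). The count for Mup3 was lowest with CCl4 (5 of 9) and highest with APAP (9 of 9). With a pseudocount of 10, which damps ratios to genes near 0, Mup3 had 42 higher and 4 lower and the near-identical sum 40 and 0. These tests were added after the fold changes had been seen, and the 9 genes share mice and controls, so the count is a description of this set of ratios.

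**Figure D5:**
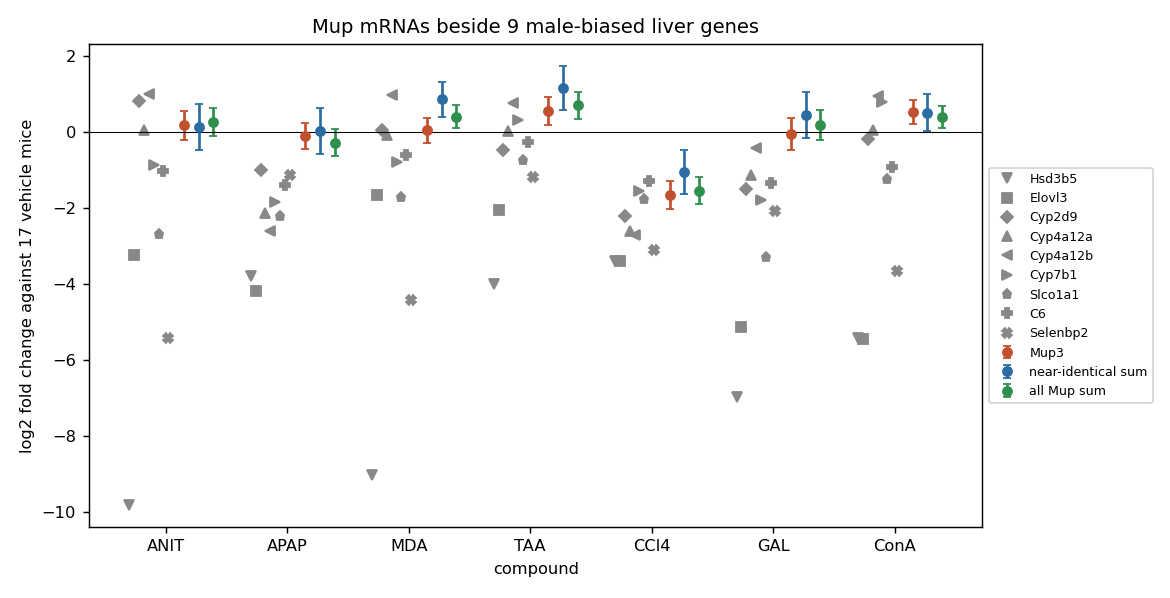
Log2 fold change against all 17 vehicle mice for 9 male-biased liver genes (grey symbols) and for Mup3, the near-identical sum and the sum of all Mup genes (colours, with bars of 1 SE from edgeR). Hsd3b5 lies between -9.81 and -3.39, whereas Mup3 lies between -0.11 and 0.56 except with CCl4 (-1.65), with the GAL value turning from -0.05 to 0.82 under library-total scaling.

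Genes of growth hormone signalling also changed. The growth hormone receptor Ghr was at 109.8 to 289.8 CPM in vehicles and was lower with all 7 compounds, from -0.95 with ANIT to -2.10 with GAL. Igfals, the serum partner of IGF1 and a growth hormone target, was also lower with all 7, from -1.73 with CCl4 to -3.38 with GAL. Stat5b was lower with 6 of 7 and at -0.34 with ANIT. Socs3, an inhibitor induced by cytokines, was higher with 6 of 7, from 1.11 with CCl4 to 4.56 with ConA. The male-biased repressor Bcl6 was lower with 6 of 7. With GAL, where Ghr was lowest relative to vehicles, Igf1 fell too and Mup3 was at -0.05 ± 0.43 (0.82 with library-total scaling). With CCl4 Ghr (-1.86) and Igf1 (-1.19) fell and so did Mup3, and neither Ghr (0.17) nor Igf1 (0.34) was called between CCl4 and GAL. These comparisons share their vehicle mice.

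Among receptors and factors of liver identity and hormone response, 7 genes were tested. Cebpa, a hepatocyte identity factor, was lower with 6 of 7 compounds, most with CCl4 (-1.86), and lower with CCl4 than with GAL (-1.00). Zhx2, a transcriptional regulator in hepatocytes, was lower with 5 of 7, from -0.77 with CCl4 to -1.59 with GAL. The glucocorticoid receptor Nr3c1 was called with ConA only, at 1.14. Female-biased liver genes gave mixed counts against all vehicles: 3 higher and 0 lower of 8 tested with ANIT (28.0% of all genes called), 1 and 3 of 7 with APAP (33.4%), 4 and 3 of 7 with MDA (34.2%), 1 and 2 of 7 with TAA (49.7%), 0 and 5 of 7 with CCl4 (53.4%), 0 and 4 of 8 with GAL (52.5%), and 2 and 3 of 7 with ConA (68.0%).

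Other lipocalins of the liver were counted in the same comparisons. Lcn2, the iron-siderophore binding acute-phase lipocalin, was higher with 6 compounds, from 2.02 with CCl4 to 7.34 with ConA, and lower with GAL (-2.97). Orm2, an acute-phase orosomucoid, was higher with ANIT (1.90), APAP, MDA (1.82), CCl4 (1.34) and ConA (3.34) and lower with GAL (-1.87). With GAL all 8 lipocalins tested were lower (27.5% of all genes were), with a median of -1.75, beside a median of 0.34 for the 10 members and 0.01 for all genes. With CCl4, 3 were higher and 5 lower (53.4% of all genes were called, 27.2% lower), with a median of -0.50, beside -1.20 for the 10 members and -0.01 for all genes. In the direct comparison 6 of 8 lipocalins were higher with CCl4 than with GAL and 0 lower, and 4 of 10 Mup members were lower, where 42.5% of all genes were called (20.3% lower).

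The genes whose levels ran most like the family across the 57 mice were found among the 5896 genes that averaged 10 CPM or more over all mice. For the near-identical sum they were Cyp4a12b (r = 0.67 over 57 mice, 0.82 over the 17 vehicle mice), the pseudogene Morf4l1-ps1 (0.67, 0.58), Btf3l4 (0.64, 0.66), Ginm1 (0.64, 0.65) and mt-Atp6 (0.62, 0.68). For Mup3 they were the clotting factor gene F9 (0.79, 0.86), Ndufa1 (0.77, 0.81) and mt-Nd4 (0.77, 0.72). For Mup20 they were Itgb1 (0.62, 0.81), Arpc5 (0.61, 0.80) and Eif3e (0.59, 0.86), and for Mup21 Cfhr2 (0.72, 0.72), Rida (0.71, 0.71) and F9 (0.71, 0.60). The points share libraries, scaling and, within a group, treatment, so these values describe the mice and are not tested. Hsd3b5, picked after its values were seen, had r = 0.78 with the near-identical sum over the 17 vehicle mice and -0.03 over all 57.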

How the data were processed

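Bulk liver RNA of 57 mice was measured with stranded, polyA-selected, single-end libraries, per the labels' protocols. The authors deposited 1 table of estimated counts per gene, and the submitters' processing notes name Salmon 1.6.0, R 4.1.3 and GRCm39; the annotation release, import settings and use of strand are not given in the sources used here. The smallest value of a gene fell with its transcript length (Spearman -0.76 over 13043 single-transcript genes), as in values divided by length. Gene symbols came from GENCODE M21, which matched 51482 of 54307 identifiers (2825 unmatched), and coding sequences from its GRCm38 transcripts. That annotation is of another build than the table, so no coordinates are given.

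Estimated counts were rounded and fitted with edgeR 4.0.16 in R 4.3.3 (quasi-likelihood test, TMM scaling, filterByExpr). Each fit held 2 groups, with Benjamini-Hochberg adjustment over all rows and a threshold of 0.05. Each sum was added as a further row after library sizes, scaling and the filter had been set on the genes. CPM are TMM-scaled, and log2 ratios used a pseudocount of 1 and two-sided exact permutation tests (scipy 1.17.1). Replicates are separate mice, and no pair of libraries held identical values. Alternatives were DESeq2 1.42.0, library-total scaling, no filter, limma 3.58.1 on log2(CPM + 1), a replicate block, number ranges and leaving out each mouse. On simulated counts edgeR recovered 69% of 100 genes changed by log2 1 and 100% changed by log2 2 for the TAA design (14679 genes), and 22% and 96% for CCl4 against its 2 route vehicles (15122 genes).

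All 10 members are named. From the lists of pathway and marker genes, called genes are named, up to 4 a list and comparison by size, with all hormone signalling genes allowed; the marker Tf was read under its mouse symbol Trf. Genes most like the family are the 5 (near-identical sum) or 3 (single members) with the highest r. The members and lists were chosen with earlier results of these data known. Comparisons between compounds, ratios to male-biased genes, the sum of all Mup genes and the sum without Mup22 were added after seeing the data.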

Additional observations from a re-analysis of the deposited data

Results flagged for a closer look

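Some mice stood apart from their group in Mup level, by the gap to the nearest mouse relative to the group's range. Of 84 groups of values tested 20 held such a mouse. Chance gives about 1 in 20 for independent and normally distributed values. The rule was applied to CPM that were not log-transformed, so this rate need not hold. Nor are the values independent, since single genes and their sums share mice and reads. Of the 20, 16 were TAA mouse 1, APAP mouse 1 or GAL mouse 2. In TAA mouse 1 the near-identical sum was 22849 CPM against 1924 to 7573 in the other TAA mice, and the sum of all Mup genes was 69377 against 16592 to 30010. The same mouse had 1912 CPM of Mup1, 8137 of Mup7, 7258 of Mup11 and 175 of Mup17. In APAP mouse 1 the near-identical sum was 13548 CPM against 642 to 2968, and the sum of all Mup genes 37121 against 10160 to 17174. It had 712 CPM of Mup1, 3162 of Mup7, 3783 of Mup11, 2314 of Mup14 and 3475 of Mup22.

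GAL mouse 2 was low, with a sum of all Mup genes of 11360 CPM against 29733 to 30823, Mup3 at 1082 against 3528 to 3937 and Mup17 at 32.4 against 90.4 to 99.0. Mup22 was high in GAL mouse 4 (1898 CPM), Mup20 in CCl4 mouse 1 (1581 CPM), Mup1 in ConA mouse 2 (601 CPM) and Mup17 in ConA mouse 8 (259 CPM).

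Compounds given by the same route differed directly. CCl4 was below GAL by a log2 difference of -1.66 for Mup3, -1.67 for Mup21, -1.72 for Mup11, -3.50 for Mup17 and -1.79 for the sum of all Mup genes. APAP was below MDA for Mup17 by -1.98.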

How the results depend on the processing

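The near-identical sum was below the threshold in every comparison and passed it under 13 of 227 alternatives. Without Mup22 it did so with TAA (1.37 against gavage vehicle, 1.46 against all vehicles). Summed over every Mup gene it was -1.54 for CCl4 against all vehicles and -1.79 against GAL. DESeq2 gave 1.35 for ConA against its route vehicle and -1.57 for CCl4 against GAL. Library-total scaling gave 1.33 for GAL against all vehicles and -1.82 for CCl4 against GAL. Leaving out 1 mouse gave 0.39 to 1.46 for TAA against all vehicles, called without mouse 3, and -1.49 to -0.82 for CCl4 against all vehicles, called without mouse 1. It gave -2.00 to -1.36 for CCl4 against GAL, called without CCl4 mouse 1 (-2.00) or GAL mouse 2 (-1.87). Against route vehicles it gave -0.89 to 0.59 for CCl4, -1.25 to 0.07 for APAP and -0.25 to 0.13 for ANIT, with changes of sign, and 0.53 to 2.10 for GAL, 0.92 to 2.05 for ConA, 0.57 to 0.81 for MDA and 0.21 to 1.28 for TAA, none called.

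The number of members called changed as follows. With TAA, against both control sets, limma gave 1 and mice 1 to 4 alone or above 4 alone gave 0. Leaving out 1 TAA mouse gave 1 to 5 against gavage vehicle and 1 to 7 against all vehicles. For CCl4 against its route vehicle DESeq2 gave 4, library-total scaling 0, the number range as covariate 3, mice above 4 also 3, and leaving out 1 mouse 0 to 3. For GAL against its route vehicle DESeq2, library-total scaling and mice above 4 each gave 2, and leaving out 1 mouse 1 to 2. Library-total scaling gave 7 for GAL against all vehicles and 7 for CCl4 against GAL, where DESeq2 gave 6 and leaving out 1 mouse 2 to 7. Under that scaling 8345 of all genes were higher and 1758 lower in the first comparison, and 2050 higher and 4210 lower in the second. For CCl4 against all vehicles leaving out 1 mouse gave 3 to 5. For APAP, against both control sets, the covariate and mice above 4 gave 1, and leaving out 1 mouse 0 to 1 against the route vehicle. Limma gave 1 for MDA and 1 for ConA against all vehicles. For ConA against its route vehicle mice above 4 gave 0, and leaving out 1 mouse 0 to 1.

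The label numbers were not used to pair mice in the main fits. In no comparison of 3 or more pairs did all same-numbered pairs correlate above 0.1 (TAA 0.01 to 0.28, MDA -0.15 to 0.09). That rule cannot decide whether the numbers mark pairs. A mouse matched its own number best in 1 of 4 TAA, 1 of 4 APAP, 0 of 4 ANIT and 0 of 7 MDA pairs. With only 2 saline mice to choose from, it did so in 2 of 2 GAL, 1 of 1 ConA and 0 of 1 CCl4 pairs. A replicate block gave a near-identical sum of 1.63 and 5 members called for GAL against its route vehicle, 1 member for TAA in both control sets, and 2 for ConA against all vehicles. With the block Mup21 was at -1.23 (edgeR adjusted p = 0.062) for CCl4 against all vehicles, so its call was lost.

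Library-total scaling moved the median of all genes by -0.24 (ANIT), 0.14 (APAP), 0.53 (CCl4), 0.83 (GAL) and -0.62 (ConA) against all vehicles. The share of called genes that were higher moved from 48.1% to 22.2%, 54.1% to 70.5%, 49.1% to 80.5%, 47.7% to 82.6% and 50.4% to 25.1%. Under it Mup3 with GAL against all vehicles reversed from -0.05 to 0.82. Ratios to the sum without Mup22 were also called for Mup3 with TAA (-0.77) and GAL (-0.69) and for Mup21 with TAA (-0.98). Ratios to every other Mup gene were called for Mup3 with APAP (0.36) and GAL (-0.31) and for Mup20 with APAP (0.71) and CCl4 (1.20), and not for Mup21 with MDA (-0.32). That ratio was also not called against gavage vehicle alone (-0.87). The cause was not tested for these changes. Of 1787 alternative values of single members, 1679 stayed on their side of the threshold (188 of them, not called, changed sign), 54 lost a call, 53 gained one and 1 changed sign and was then called. The near-identical sum changed sign while not called in 23 of its alternatives. Not run were number ranges that leave a group under 2 mice (ANIT above 4, CCl4 1 to 4, low numbers for GAL and ConA against route vehicles), and the block for CCl4 and ConA against route vehicles, which leaves no residual degrees of freedom. With 2 saline mice a route, those comparisons can show only large changes.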

Other observations

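Calls among the Mup genes outside the 10 members were as follows. Against all vehicles Mup19 was higher with MDA (1.36 ± 0.45) and GAL (1.44 ± 0.51) and lower with APAP and CCl4. It was listed at 0 in 2 of 6 APAP and 4 of 7 CCl4 mice and in 0 of 17 vehicle mice. As for Mup22, no fold change is given for those 2 compounds. Mup15 was higher with MDA (2.02 ± 0.68), TAA (2.14 ± 0.82) and GAL (2.36 ± 0.84) and lower with CCl4 (-2.43 ± 0.95). Mup9 was higher with MDA (0.90 ± 0.35) and TAA (1.26 ± 0.44) and lower with CCl4 (-1.71 ± 0.43). Mup6 was called with TAA (1.49 ± 0.54) but averaged only 0.288 CPM in the 17 vehicle mice, near the expression filter. It can have passed that filter through the TAA mice alone, so its call is not read as a rise. Lower with CCl4 as well were Mup16 (-1.69 ± 0.30) and Mup13 (-1.87 ± 0.52). Mup2 was lower with APAP (-1.89 ± 0.46), MDA (-1.01 ± 0.35), CCl4 (-2.78 ± 0.42) and ConA (-1.10 ± 0.38). Against the 2 intraperitoneal saline mice, 4 of 9 such genes were lower with CCl4, Mup10 (-1.38 ± 0.38), Mup18 (-1.84 ± 0.24), Mup16 (-1.29 ± 0.42) and Mup2 (-2.22 ± 0.50). In that comparison 5151 of all 15365 genes tested (33.5%) were called, 2393 of them lower. As with the members, the reads of these copies were divided by the estimator, and single values are uncertain.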
